A study of Mus musculus with 12 samples.

Results

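The cytosolic ribosome is built from a small 40S and a large 60S subunit, and each subunit holds many different proteins around its ribosomal RNA. Most of these proteins are encoded by 1 expressed gene each, and the genes have left many processed pseudogenes, which are copies of the spliced mRNA scattered over the genome. Their mRNAs are short, abundant in nearly all cells and usually begin with a run of pyrimidines, the terminal oligopyrimidine (TOP) motif, through which mTOR signaling sets their translation together with that of elongation factors. In brain, they are present in neurons as well as glia.

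The genes described here are the cytosolic ribosomal protein genes that the deposited counts cover, chosen by symbol (Rpl or Rps and a number, Rplp0 to Rplp2, and Rpsa, without pseudogene or Rps6 kinase names). Of 52459 genes in the count tables, 88 had such a symbol, and 79 of them reached 120 counts summed over all 12 libraries; these 79 are called members below, 33 of the 40S and 46 of the 60S subunit. RNA was sequenced from cerebellum (Cb) and from forebrain and midbrain together (F/M) of male mice at 4 months of age. The Tpp1-/- mice (T) lack tripeptidyl peptidase 1, a lysosomal protease, through gene targeting, and model classical late infantile neuronal ceroid lipofuscinosis; the wild-type mice (N) came from the same heterozygous crosses. There were 3 libraries in each of the groups Cb-N, Cb-T, F/M-N and F/M-T, with no treatment in any of them. Tpp1 is disrupted in every cell of these mice, and in such whole-tissue samples fewer cells of a type and less RNA per cell cannot be told apart.

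Libraries held 21428379 to 24458189 counts. Tpp1 itself was at 115 ± 1.21 CPM in Cb-N against 30.5 ± 1.58 CPM in Cb-T, and at 87.4 ± 3.43 CPM in F/M-N against 22.8 ± 1.17 CPM in F/M-T (SD, n = 3; CPM is counts per 1000000 counts, scaled by trimmed mean of M-values, TMM, within each area). The targeted gene was thus lower in all 6 T libraries than in any N library, while reads from its transcript remained. Markers of other cells moved with genotype: the summed level of 12 microglia markers was 194 to 208 CPM in Cb-N and 725 to 730 CPM in Cb-T, with 12 of 12 higher, and 511 to 526 against 829 to 859 CPM in F/M, with 10 of 12 higher. Of 10 astrocyte markers, 9 were higher in each area, and in Cb 10 of 10 oligodendrocyte markers were higher while 9 of 10 granule cell and 9 of 10 Purkinje cell markers were lower. Hindbrain Hox genes summed to 0.472 to 0.607 CPM in Cb-N and to 14.7 to 15.4 CPM in Cb-T, and 7 of 10 olfactory bulb markers were lower in F/M-T, with sums of 140 to 147 CPM in F/M-N and 113 to 120 CPM in F/M-T. The part of these shifts in the changes of ribosomal protein genes was not tested.

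How much of each gene the counts can see comes first, because the reads are 50 nucleotides long. For each gene, every window of 50 nt of its annotated coding sequence was compared with all other annotated mouse transcripts, pseudogenes included. The median over the 79 members was 90.1% of windows found letter for letter in another gene, and in 27 members it was 100%. A coding window of Rpl38, a 60S protein, is shown because it occurs letter for letter in 4 other genes, so that a read from it has no single place of origin. It lies at chr11:114671760-114671809 (plus strand) of GRCm38, and no base is in capitals, since the whole window is shared.
Rpl38: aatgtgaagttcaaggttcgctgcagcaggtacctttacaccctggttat

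Counts followed this property. Over the 12 libraries, Rps29, a 40S zinc-binding protein with 100% of its windows shared, had 148 counts, and Rpl38, also at 100%, had 52, which left Rpl38 outside the members. Rps3 (8.09% of windows shared, 57362 counts), Rpl8 (8.73%, 54192 counts) and Rpl4 (20.3%, 85325 counts) had the most counts, and the 5 members with the highest counts took 40.2% of all member counts. Across the 79 members, the rank correlation of total count with the share of windows found elsewhere was -0.74 (Spearman's rho, a description over genes that share the same libraries). Not all members followed it: at 100%, Rpl15, Rpl27a, Rpl5 and Rpl41 had 6599 to 12673 counts, above the members' median of 4038. What the relation reflects was not tested. A low count is thus not read here as a low level of the mRNA in these brains. Levels are compared below only within a gene. How the authors counted reads that fit several places is not stated in the sources used here.

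**Figure D1:**
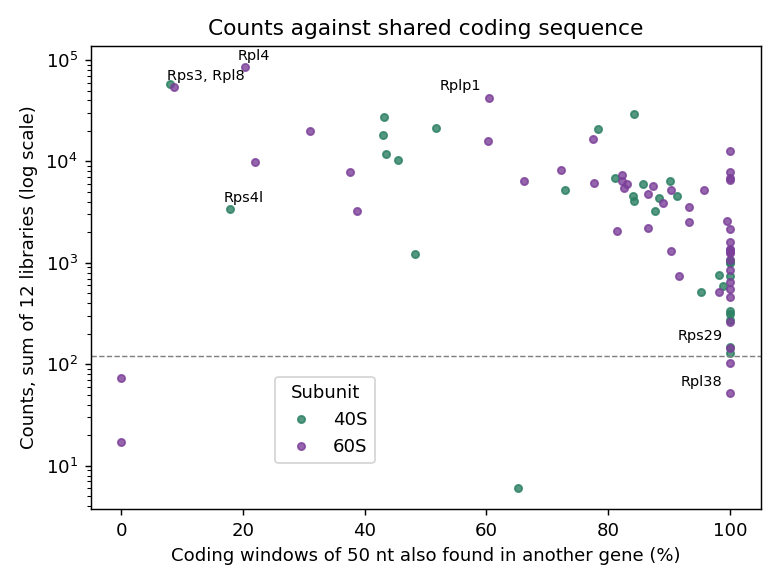
Total counts over the 12 libraries (log scale) against the share of 50-nt coding windows found letter for letter in another annotated gene, for the name-matching genes reported here with at least 1 count; the dashed line marks 120 counts. Genes with few shared windows, such as Rps3, Rpl8 and Rpl4, sit at the top left. Members at 100% reach down to Rps16, at 129 counts and near the labelled Rps29, with Rpl38 under the line.

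The 9 name-matching genes under 120 counts were Rpl24 (104 counts over the 12 libraries), Rpl3l (73), Rpl38 (52), Rpl39l (17), Rps3a3 (6) and, at 0 counts, Rpl10l, Rpl6l, Rps12l1 and Rps3a2. Rpl24 and Rpl38 encode standard 60S proteins, and all of their coding windows occur elsewhere. Rpl3l, a muscle paralog of Rpl3, and Rpl39l and Rpl10l, known from testis, had 0%, 0% and 12.5% of their windows elsewhere, and with 1 mismatch allowed 0%, 4.81% and 69.5%. The remaining 4 are annotated as processed pseudogenes. A count of 0 allows up to 3 counts in a library, which is 0.123 to 0.142 CPM, and covers counting error only. Of the members, Rps4l is annotated as a transcribed processed pseudogene, 30 overlap a snoRNA gene, 8 overlap another gene on the same strand and 24 overlap a gene on the other strand; the strand setting of the counting is not stated, so reads of such partners could be included.

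In total, ribosomal protein genes took a larger share of the counts in Tpp1-/- than in wild-type libraries of both areas. The share was 0.204%, 0.200% and 0.212% in the 3 Cb-N libraries and 0.244%, 0.248% and 0.250% in the Cb-T libraries, a ratio of group means of 1.21. In F/M the N libraries had 0.244%, 0.233% and 0.250% and the T libraries 0.283%, 0.262% and 0.274%, a ratio of 1.13. The groups did not overlap in either area, with means of 0.205% ± 0.00606 and 0.247% ± 0.00313 in Cb and of 0.242% ± 0.00842 and 0.273% ± 0.0108 in F/M (SD, n = 3). Both subunits took part: 40S genes went from 0.0859% to 0.106% and 60S genes from 0.120% to 0.141% in Cb. In F/M, 40S genes went from 0.102% to 0.116% and 60S genes from 0.141% to 0.157%. The share is a sum in which genes with readable sequence weigh most; without the 5 members with the highest counts it was 0.126% in Cb-N, 0.150% in Cb-T, 0.142% in F/M-N and 0.161% in F/M-T.

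**Figure D2:**
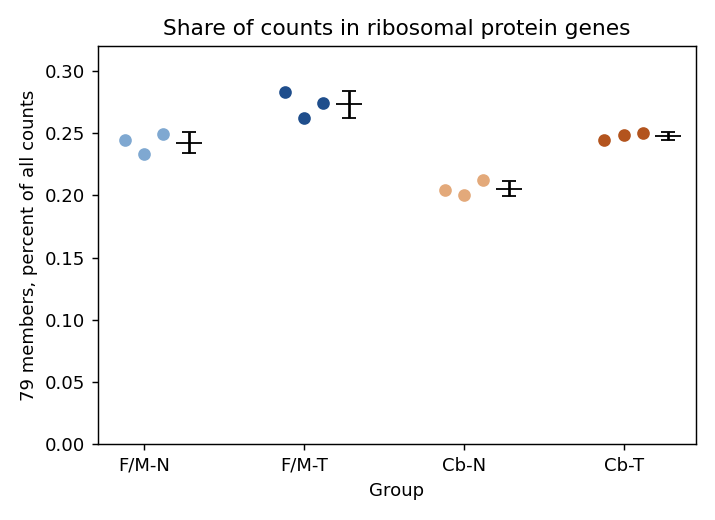
Percent of all counts that fell on the 79 members, 1 point per library in groups of 3, with the mean and SD beside them. In each area all T points lie above all N points, and Cb-N is the lowest group at 0.200% to 0.212%.

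In cerebellum, 36 of the 78 members tested were higher in Cb-T than in Cb-N and 2 were lower at a false discovery rate (FDR) below 0.1, where 29.8% of all genes tested were higher and 27.9% lower (edgeR quasi-likelihood test, Benjamini-Hochberg adjustment over 16382 genes; Rpl19 did not pass the filter on low counts). That is 46.2% and 2.56% of the members tested. The changes were small. No member rose by 1.5-fold, against 8.54% of all genes, and 1 fell by that much, against 2.66%. The median log2 fold change was 0.17 over members and 0.01 over all genes, and 67 members had a positive value. Of the 33 members of the 40S subunit 15 rose and none fell (0 at FDR below 0.1), and of the 45 tested of the 60S subunit 21 rose and 2 fell.

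The rise was read mostly from genes with many counts. Among members with a mean of at least 300 counts per library, 34 of 41 rose, against 2 of 37 under that level. Of members with under 50% of coding windows shared, 10 of 14 rose, with a median log2 fold change of 0.25; of those with 50% to under 100%, 24 of 38 rose, with a median of 0.21. Where all windows are shared, 2 of 26 rose (Rpl15 and Rpl41), with a median of 0.07. Fewer counts also widen the errors, so these counts do not show that the last class responded differently.

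The result also depends on how gene length and GC content are handled. Among genes other than members, those with an mRNA of 700 to under 1500 nt had a median log2 fold change of 0.09 in Cb, those of 3000 nt and over -0.04, and those under 700 nt 0.03, where members had 0.20; the median member mRNA has 775 nt. With offsets that remove the library's trend with GC content and length, 22 members were higher and 5 lower in Cb, and the members' median was 0.07 while that of all genes was -0.05. Without offsets, 29.8% of all genes tested were higher in Cb and 27.9% lower. Their shares with offsets are not given here, so the 22 and 5 do not show an excess of calls. Rps3, Rps9, Rps21, Rplp0, Rplp1, Rpl4 and Rpl41 were among the members still higher, with offset log2 fold changes from 0.11 (Rpl4) to 0.40 (Rps21). What the trend with length reflects was not tested.

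**Figure D3:**
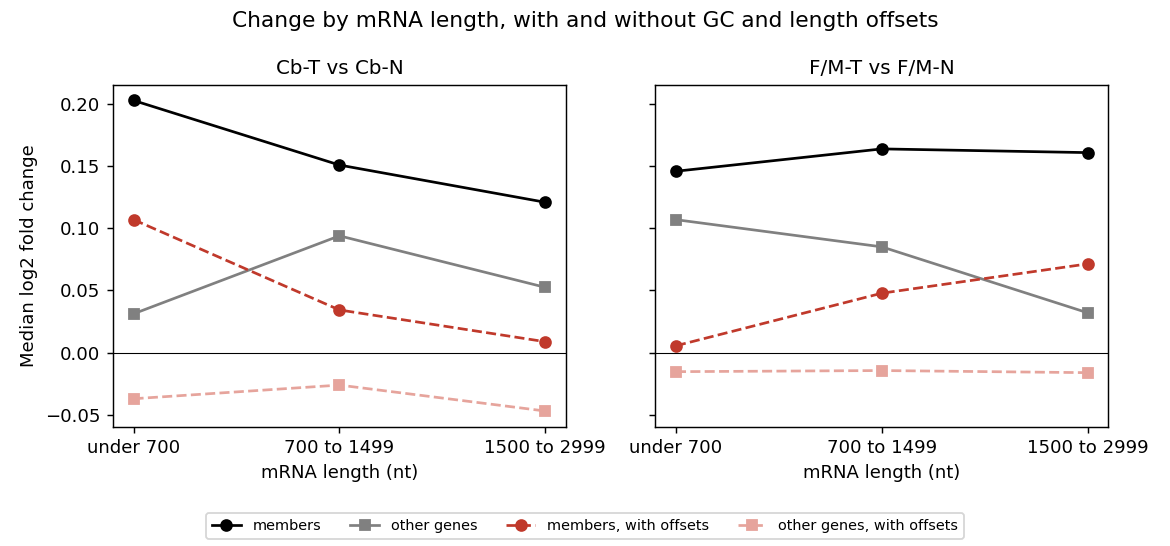
Median log2 fold change (T against N) of members and of all other genes by annotated mRNA length, without offsets (solid) and with GC and length offsets (dashed); the 2 members of 3000 nt and over are left out. Without offsets members lie above other genes in every class shown, from 0.12 to 0.20 in Cb and from 0.15 to 0.16 in F/M, and with offsets they lie closer to 0, down to 0.01 in both areas.

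Among members past FDR below 0.1, the largest increase in Cb was that of Rps21, a small protein of the 40S subunit; Rps29 had a log2 fold change of 0.57 from few counts (adjusted p = 0.143). It stood at 24.3, 23.9 and 24.8 CPM in Cb-N and at 31.3, 36.3 and 35.8 CPM in Cb-T. All T libraries were above all N libraries, and the difference was 1.42-fold (log2 0.50, SE 0.06, adjusted p = 3.06e-10 by the quasi-likelihood test). Rps3a1, another 40S protein, which contacts initiation factors, had 12.1, 10.8 and 13.6 CPM in Cb-N and 17.5, 16.2 and 16.8 CPM in Cb-T. Again the groups were apart, at 1.38-fold (log2 0.47, SE 0.08, adjusted p = 2.17e-06). Of the genes tested, 29.3% had all T libraries above all N libraries in Cb, and of the members 38 of 78; the reverse held for 27.6% of genes and 2 of 78 members.

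Rpl41, whose product is the shortest protein of the ribosome, lay at 16.8, 16.7 and 17.04 CPM in Cb-N and at 24.2, 22.3 and 21.3 CPM in Cb-T, 1.34-fold higher (adjusted p = 4.38e-07). Rpl23, a 60S protein that can also bind Mdm2, had 13.8, 11.99 and 15.5 CPM in Cb-N and 18.3, 16.9 and 18.6 CPM in Cb-T, 1.31-fold higher (adjusted p = 4.68e-05). In both genes the groups were apart. All windows of Rpl41 and 86.5% of those of Rpl23 occur in other genes; untranslated parts of the mRNA were not examined.

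The acidic stalk, through which the 60S subunit recruits elongation factors, is made of P0, P1 and P2, and all 3 genes rose in Cb, Rplp2 only without the GC and length offsets (0.12 with them, adjusted p = 0.151). Rplp1 had 97.1, 103 and 104 CPM in Cb-N and 139, 130 and 127 CPM in Cb-T, 1.30-fold higher (adjusted p = 6.32e-13). Rplp0 had 52.3, 51.6 and 51.0 CPM in Cb-N and 62.1, 69.6 and 65.5 CPM in Cb-T, 1.27-fold higher (adjusted p = 2.16e-09). Rplp2 had 17.2, 19.0 and 19.3 CPM in Cb-N and 24.7, 22.0 and 19.5 CPM in Cb-T, 1.19-fold higher (adjusted p = 0.00245). The groups were apart for Rplp0 and Rplp1 by a clear margin, and for Rplp2 only by the distance from 19.3 to 19.5 CPM.

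Only 2 members fell in Cb at this threshold, both with few counts. Rpl17, a 60S protein at the exit tunnel, had 2.17, 1.82 and 2.27 CPM in Cb-N and 1.34, 1.40 and 1.11 CPM in Cb-T, 0.618 times the N level (log2 -0.69, SE 0.21, adjusted p = 0.00472). Rpl36, another 60S protein, had 2.12, 1.49 and 2.17 CPM in Cb-N and 1.21, 1.24 and 1.41 CPM in Cb-T, 0.667 times the N level (log2 -0.58, SE 0.22, adjusted p = 0.0215). Neither pair of groups overlapped, but Rpl17 summed to 457 and Rpl36 to 510 counts over 12 libraries, with 100% and 98.1% of their windows shared. With genes required to average at least 50 counts, neither was tested, and 0 members were lower in Cb.

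**Figure D4:**
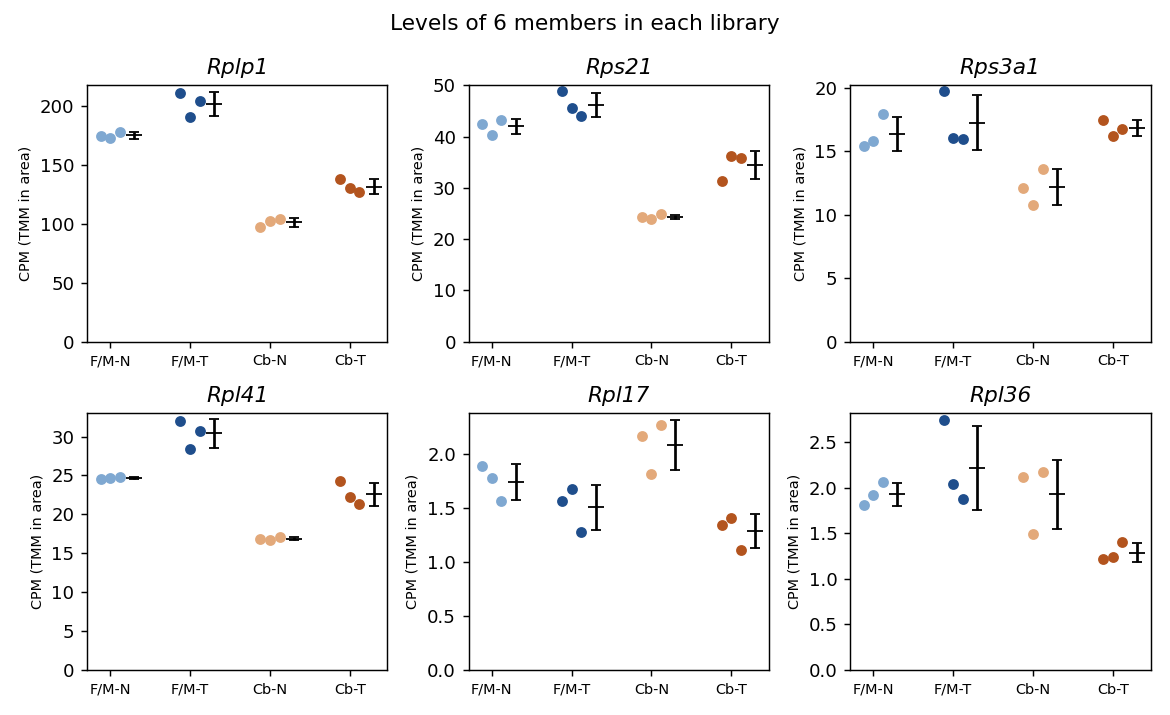
Level of 6 members in each library, in CPM scaled by TMM within each area, with the mean and SD (n = 3) beside the points. Rplp1, Rps21, Rps3a1 and Rpl41 lie higher in all Cb-T than in all Cb-N libraries, whereas Rpl17 and Rpl36 lie lower in Cb-T and at 1.11 to 2.74 CPM throughout F/M-T and Cb-T.

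In forebrain and midbrain, 33 of the 77 members tested were higher in F/M-T than in F/M-N and 0 were lower at FDR below 0.1, where 12.8% of 16665 genes were higher and 14.4% lower (Rps16 and Rps29 did not pass the filter). By DESeq2, 19 were higher and 0 lower. No member passed 1.5-fold in either direction, against 2.63% of genes higher and 0.858% lower. The median log2 fold change was 0.15 over members and 0.01 over all genes, and 72 members had a positive value. By subunit, 14 of 31 members of the 40S and 19 of 46 of the 60S rose. Members with a mean of at least 300 counts rose in 31 of 41 cases and the others in 2 of 36.

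The count in this area depended on single libraries and on length. Without F/M-N replicate 2 the count of higher members was 18, and without F/M-T replicate 1 it was 19. Other genes with an mRNA under 700 nt had a median log2 fold change of 0.11 in F/M, against 0.15 for members of that length, and those of 700 to under 1500 nt 0.09, against 0.16. With GC and length offsets, 12 members were higher and 1 lower, and the members' median was 0.04, against -0.02 over all genes. Without offsets, 12.8% of all genes tested were higher in F/M and 14.4% lower. Their shares with offsets are not given here, so the 12 and 1 do not show an excess of calls. Rpl22l1 (offset log2 fold change 0.21), Rps4l (0.24), Rpl41 (0.18), Rplp2 (0.18), Rpl14 (0.17), Rps9 (0.15), Rplp1 (0.10) and Rps3 (0.10) were among the 12.

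Among members past FDR below 0.1 with separate groups, the largest increase in F/M was that of Rpl22l1, the paralog of Rpl22. Rpl22l1 had 18.4, 18.7 and 19.3 CPM in F/M-N and 23.8, 23.5 and 25.2 CPM in F/M-T, 1.29-fold higher (log2 0.36, SE 0.06, adjusted p = 0.000154). Rps4l, the expressed retrocopy of the X-linked Rps4x, had 12.1, 12.2 and 12.4 CPM in F/M-N and 16.3, 14.3 and 15.2 CPM in F/M-T, 1.25-fold higher (log2 0.32, SE 0.07, adjusted p = 0.00309). The spread within F/M-N was small for both, and no T library came near the N libraries. For orientation, 17.7% of genes tested had all F/M-T above all F/M-N libraries, and 32 of 77 members did; the reverse held for 17.8% of genes and 0 members.

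Rpl41 rose here as well, from 24.5, 24.7 and 24.8 CPM in F/M-N to 32.04, 28.4 and 30.7 CPM in F/M-T, 1.23-fold (adjusted p = 0.000619). Rpl14, a 60S protein, went from 20.8, 22.1 and 21.6 CPM to 26.3, 25.8 and 26.9 CPM, 1.22-fold (adjusted p = 0.000753). Rplp2 of the stalk went from 21.8, 23.0 and 25.99 CPM to 30.8, 27.6 and 27.8 CPM, 1.22-fold (adjusted p = 0.0042). Each of these had separate groups. Its stalk partners rose as well, Rplp1 by 1.15-fold (adjusted p = 0.000343) and Rplp0 by 1.14-fold (adjusted p = 0.00887); with the GC and length offsets Rplp0 was at 0.09 and no longer called (adjusted p = 0.126).

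Of the 76 members tested in both areas, 28 were higher in both, 8 were called higher in Cb alone and 5 in F/M alone, which is 36.8%, 10.5% and 6.58% of them, against 9.42%, 19.1% and 3.15% of the 15706 genes tested in both. The calls of 1 area alone are not a test that the areas differ, which the interaction below gives.

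**Figure D5:**
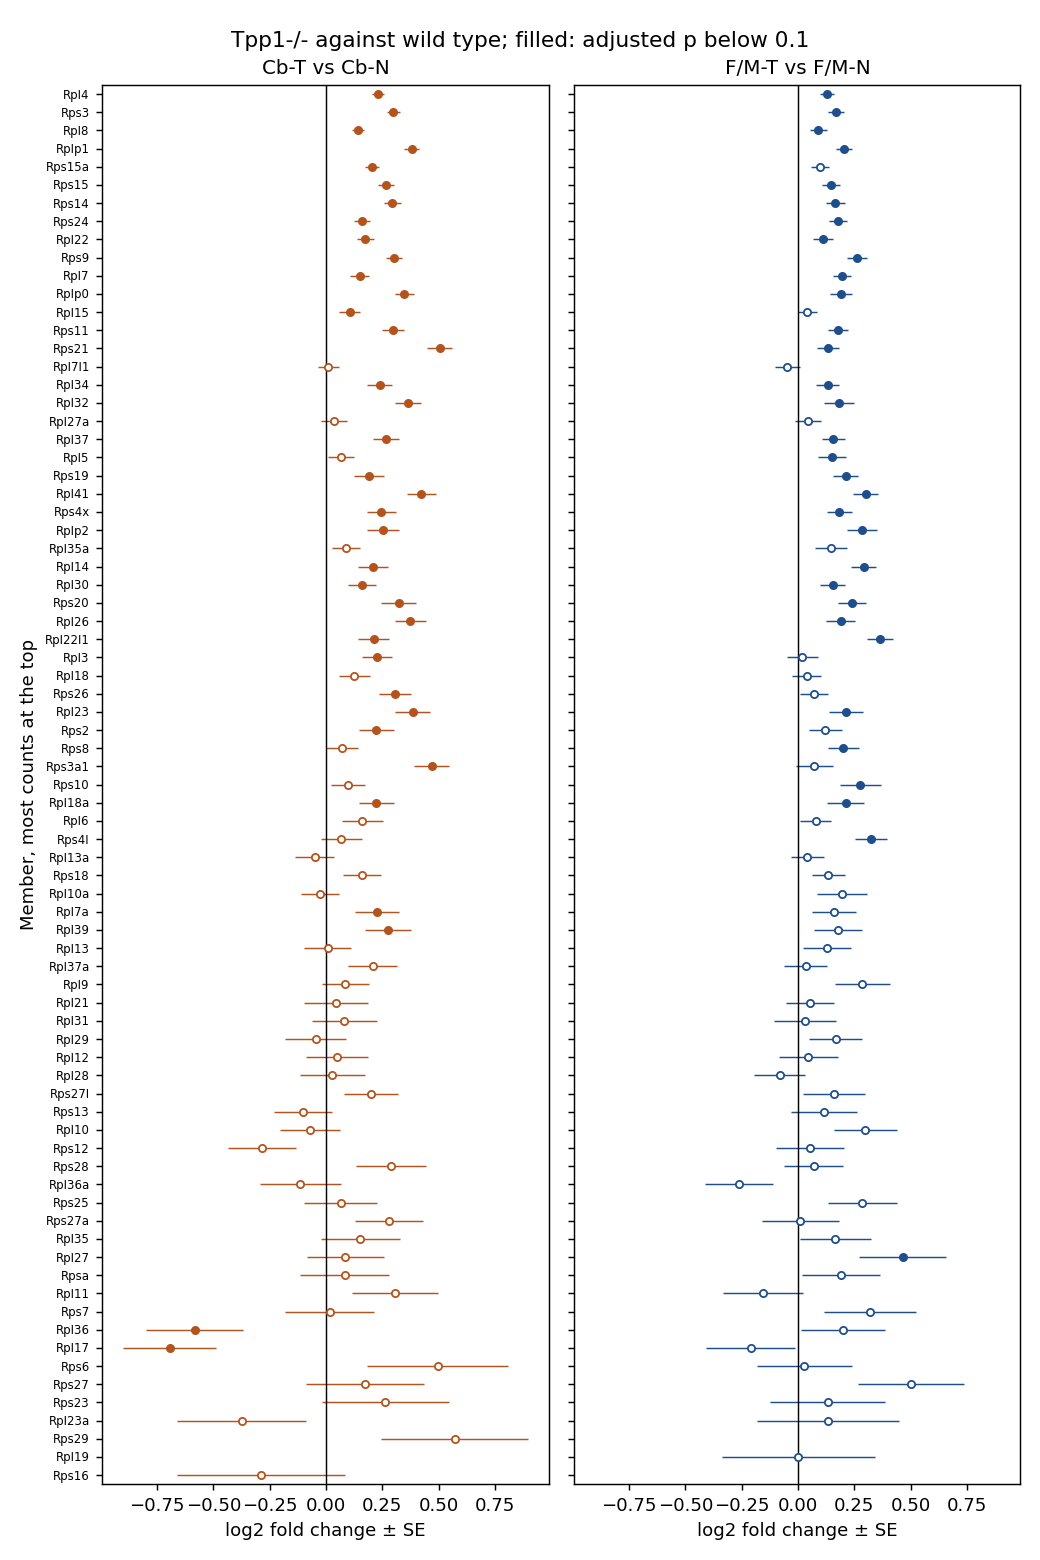
Log2 fold change of each member reported here, T against N, with its standard error (n = 3 libraries per group), ordered from the most counts at the top to the fewest at the bottom; filled points passed FDR below 0.1. Nearly all points of the upper part lie to the right of 0 in both areas, errors widen downwards, and Rpl36 and Rpl17 are the filled points left of 0 in Cb.

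Paralogs and role groups showed the same small scale. Rpl22, which also binds RNA outside the ribosome, rose 1.13-fold in Cb (adjusted p = 0.000159) and 1.08-fold in F/M (adjusted p = 0.0803), and Rpl22l1 rose 1.16-fold in Cb (adjusted p = 0.00865). Rps4x rose 1.19-fold in Cb (adjusted p = 0.00122) and 1.14-fold in F/M (adjusted p = 0.0223), while Rps4l had a log2 fold change of 0.07 in Cb (SE 0.09, adjusted p = 0.55). Rpl3, a core 60S protein by the peptidyl transferase center, rose in Cb (log2 0.23, adjusted p = 0.00439) and had 0.02 in F/M (adjusted p = 0.885). Rpl7 rose in both areas, by 0.15 in Cb and 0.19 in F/M on the log2 scale, whereas its relative Rpl7l1 had 0.01 and -0.05 with adjusted p of 0.891 and 0.595. With the GC and length offsets, Rpl22 in F/M was at -0.03 (adjusted p = 0.627), and the calls of Rpl7 (0.03 in Cb, 0.07 in F/M), Rps4x (0.12 and 0.06) and Rpl3 in Cb (0.08) ended, while Rpl22l1 in Cb (0.16, adjusted p = 0.0444) kept its call.

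Rps27 and Rps27l, a p53-responsive paralog, are a pair that short reads can partly separate. Their coding sequences have equal length, 252 bases, and differ at 60 of them; the first 60 coding bases are shown, with the 18 differing bases in capitals.
Rps27: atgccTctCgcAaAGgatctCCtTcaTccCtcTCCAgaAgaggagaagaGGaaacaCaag
Rps27l: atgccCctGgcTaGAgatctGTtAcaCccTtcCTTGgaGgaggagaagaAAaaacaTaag
Rps27 lies on chromosome 3 and Rps27l on chromosome 9. All windows of Rps27, and 48.3% of those of Rps27l, occur in some other gene, and the counts were 311 and 1215 in the same order. Rps27l had 4.33, 4.48 and 4.86 CPM in Cb-N and 5.11, 4.99 and 5.58 CPM in Cb-T, apart but not past the test (adjusted p = 0.172). Rps27 had 0.883, 0.826 and 1.03 CPM in F/M-N and 1.261, 1.14 and 1.49 CPM in F/M-T, with adjusted p = 0.146.

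Among the proteins around the decoding site and the head of the 40S subunit, Rps3, Rps15 and Rps2 rose in Cb, by 0.30, 0.27 and 0.22 on the log2 scale, and Rpsa, the laminin receptor, had 0.08 (adjusted p = 0.755); with the offsets Rps2 was at 0.10 and no longer called (adjusted p = 0.268). Rps3 had 175, 168 and 177 CPM in Cb-N and 205, 217 and 218 CPM in Cb-T, and 208, 199 and 210 against 238, 220 and 237 CPM in F/M. Of the 5S particle that restrains Mdm2, Rpl5 had log2 0.06 in Cb (adjusted p = 0.366) and rose by 0.15 in F/M (adjusted p = 0.0992), and Rpl11 had 0.31 and -0.16 with adjusted p of 0.179 and 0.582. Rps6, the substrate of S6 kinase downstream of mTOR, was barely countable at 338 counts in all, with 0.677, 0.653 and 0.708 CPM in Cb-N and 0.563, 0.949 and 1.36 CPM in Cb-T (adjusted p = 0.184). The ubiquitin fusion gene Rps27a had log2 0.28 in Cb and 0.01 in F/M, with adjusted p of 0.12 and 0.972.

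Of 15 genes whose human counterparts are mutated in Diamond-Blackfan anemia, 5 rose in Cb and 6 of the 14 tested in F/M (Rps29 was not tested there), and 29.8% and 12.8% of all genes tested did so. In Cb, Rps19 (log2 0.19), Rps24 (0.16), Rps26 (0.31), Rpl15 (0.10) and Rpl26 (0.37) rose, and the rest, among them Rps7, Rps10, Rps28, Rpl27, Rpl31 and Rpl35a, did not pass the test. In F/M, Rps19 (0.21), Rps24 (0.18), Rps10 (0.28), Rpl5 (0.15), Rpl26 (0.19) and Rpl27 (0.46) rose. Of these, Rpl27 had overlapping groups and ranged from 0.312 without F/M-N replicate 1 to 0.718 without F/M-N replicate 3, and Rpl5 was at 0.0872 without F/M-T replicate 1. Rps10 was at 0.424 without F/M-N replicate 3, and each of these 3 lost its call in some of the 6 fits that leave out a library. With the GC and length offsets, the calls of Rps19 (0.08), Rps24 (0.04) and Rpl15 (-0.03) in Cb and of Rps24 (0.08), Rpl5 (0.07), Rpl26 (0.05) and Rpl27 (0.33) in F/M ended. Tpp1 lies at chr7:105744811-105752235, and 5 members are on the same chromosome at 3.77 Mb (Rpl27a), 6.27 Mb (Rps3), 10.6 Mb (Rps13), 12.4 Mb (Rps15a) and 35.7 Mb (Rplp2) from it. The nearest, Rpl27a, had log2 fold changes of 0.03 in Cb and 0.04 in F/M (adjusted p of 0.647 and 0.624).

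The interaction compares the T against N change of Cb with that of F/M in 1 fit over all 12 libraries. Of 79 members, 11 had a larger change in Cb and 1 a smaller one at FDR below 0.1, where 17.4% and 10.1% of 17482 genes did, so the share of members was 13.9% and 1.27%. At 1.5-fold it was 0 and 1 member (Rpl36), against 6.41% and 1.2% of genes. Rps3a1 led: in F/M it stood at 15.4, 15.8 and 17.9 CPM in N and 19.8, 16.1 and 16.0 CPM in T, overlapping groups, against the separate ones in Cb, and the changes differed by 0.42 on the log2 scale (SE 0.12, adjusted p = 0.0117). For Rps21 the difference was 0.39 (SE 0.08, adjusted p = 0.000308), with 42.6, 40.4 and 43.2 CPM in F/M-N and 48.9, 45.6 and 44.1 CPM in F/M-T; its F/M increase of 0.13 (adjusted p = 0.0554) was -0.00445 with the GC and length offsets. Rps26 differed by 0.25 (SE 0.09, adjusted p = 0.0459). Rpl36 differed the other way, by -0.76 (SE 0.28, adjusted p = 0.0508), with 1.81, 1.91 and 2.06 CPM in F/M-N and 2.74, 2.04 and 1.87 CPM in F/M-T. These calls were few and moved readily: the higher count was 5 without F/M-N replicate 1, 7 without F/M-N replicate 3, 7 without F/M-T replicate 2, 6 without Cb-N replicate 2, 5 without Cb-T replicate 1, 6 without Cb-T replicate 2 and 3 without Cb-T replicate 3, and it was 4 by DESeq2. The lower count was 0 by DESeq2 and without F/M-T replicate 1, Cb-N replicate 1 or Cb-N replicate 3, so Rpl36 was then not called, and it was 2 without F/M-N replicate 3 or Cb-T replicate 1 and 3 without Cb-T replicate 3. The study's methods describe both areas as taken from 3 mice per genotype, but the labels do not tie libraries of the areas to animals, and the fit took them as independent.

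Between the control areas, ribosomal protein genes were mostly lower in cerebellum. Cb-N was below F/M-N for 46 of 77 members and above it for 9, where 40.1% and 40.3% of all genes were lower and higher, and the median log2 difference was -0.25 over members and 0.01 over all genes. At 1.5-fold, 8 were lower and 2 higher, against 22.8% and 19.2% of all genes. The groups were apart, Cb-N lower, for 44 members and 39% of genes, and Cb-N higher for 10 members and 39.2% of genes. Rplp1 had 174.5, 173 and 178 CPM in F/M-N, against 97.1 to 104 CPM in Cb-N, with a log2 difference of -0.87 (SE 0.03, adjusted p = 1.9e-15). These CPM are scaled within each area. The log2 differences come from a fit that scaled both areas together, so the ratio of the CPM need not match them. Rps21 differed by -0.86, Rps2 by -0.80, Rpl21 by -0.73, Rpl37 by -0.66, Rps15 and Rpl41 by -0.62, and Rps6 by -1.28 from few counts. Among the members higher in cerebellum were Rpl23a (0.69, adjusted p = 0.0463), with 262 counts in all, Rpl9 (0.55), Rps13 (0.50) and Rpl10 (0.34). The groups of Rpl23a overlapped, and its value ranged from 0.392 to 1.02 with 1 library left out. Cb-N enters this comparison as well as the one with Cb-T, so the 2 sets of values share libraries.

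Genes around the ribosome are read against the shares of all genes tested, 29.8% higher and 27.9% lower in Cb and 12.8% higher and 14.4% lower in F/M. Of 22 other TOP mRNAs, which encode elongation and initiation factors and related proteins, 13 were higher and 2 lower in Cb (median log2 0.11), and 10 were higher and 0 lower in F/M (median 0.09). Eef1a1 and Eef1b2, subunits of the factor that brings aminoacyl-tRNA, rose by 0.38 and 0.38 in Cb and by 0.12 and 0.14 in F/M, and Rack1, a scaffold on the 40S head, by 0.22 and 0.15. Of 4 ribosomal proteins that the symbol rule leaves out, Rack1 included, 1 of 3 tested rose in Cb and 1 of 4 in F/M, that gene being Rack1. Of 38 ribosome biogenesis genes, 10 (26.3%) were higher and 5 lower in Cb and 5 (13.2%) and 4 in F/M, so their higher share was near that of all genes; Npm1, a nucleolar chaperone, rose by 0.28 and 0.24, while Ubtf, which drives ribosomal RNA transcription, fell by 0.22 and 0.13 on the log2 scale. Myc, a transcriptional activator of this program, was higher in Cb (log2 1.10).

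Against the same shares (29.8% and 27.9% in Cb, 12.8% and 14.4% in F/M), among 25 mTOR pathway genes and regulators of TOP mRNAs 3 were higher and 14 lower in Cb (median -0.10), and 1 was higher and 5 lower in F/M (median 0.0036). Mtor fell by 0.12 in both areas and Larp1, a protein that holds TOP mRNAs, by 0.11 in Cb on the log2 scale, whereas Eif2ak2, an interferon-induced kinase, rose by 0.62 in Cb and 0.91 in F/M. Of 10 snoRNA host genes 3 rose and 1 fell in Cb, and 1 rose and 0 fell in F/M. Their higher shares were near those of all genes, and their lower shares were below those of all genes. The one that rose in F/M was Gas5, which is also a TOP RNA. Mitochondrial ribosomal proteins, a list added after results were seen, have short mRNAs but do not belong to the cytosolic ribosome: 32 of 77 were higher in Cb and 16 of 77 in F/M, with 0 lower in both and medians of 0.08 and 0.08.

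Start regions were read for the TOP motif. RefSeq start windows (GRCm38.p6) matched 58 of the 79 members, and a run of at least 8 C or T letters in a row on the gene's strand, from 40 bases before to 20 after the annotated start, occurred in 51.7% of them and in 24.0% of 27025 genes. The letters searched were C and T only, in any order, and a longer run counts once. The 3 examples, chosen as those with the longest runs among members higher in both areas whose longest run lies wholly inside the stretch printed, show 10 bases before and 20 after the start, with the run in capitals. Rpl14 lies at chr9:120571507-120571536, Rpl22l1 at chr3:28805498-28805527 and Rplp2 at chr7:141447641-141447670, all on the plus strand.
Rpl14: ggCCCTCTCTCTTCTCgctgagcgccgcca
Rpl22l1: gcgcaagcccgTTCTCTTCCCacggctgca
Rplp2: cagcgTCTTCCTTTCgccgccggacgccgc
Of members with such a run 13 of 30 rose in Cb and 11 of 30 in F/M, and of those without it 12 of 27 and 10 of 27. Of all genes tested, 29.8% rose in Cb and 12.8% in F/M. Annotated starts can lie some bases from the true ones, so a missing run says only that these letters are not in this window.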

How the data were processed

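Per the labels and the study's methods, total RNA was extracted with TRIzol and cleaned with an RNeasy kit including DNase, libraries were made with a stranded mRNA kit, and single-end reads of 50 nt were aligned to GRCm38 (mm10) with STAR (2.5.1b in the submitters' processing notes) and counted per gene with featureCounts 1.26.1. The deposited values are raw read counts per gene, 1 table per library; handling of reads with several alignments, strand setting and annotation release are not given in the sources used here.

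Counts were used as deposited. Genes passing filterByExpr were tested by edgeR 4.0.16 (quasi-likelihood, TMM, R 4.3.3) within each area or, for the interaction, over all 12 libraries, with Benjamini-Hochberg adjustment over all genes tested; calls used FDR below 0.1, and 1.5-fold where stated. On simulated data, 187 of 200 genes changed 2-fold were recovered in each of Cb (16337 genes tested, 4 false calls) and F/M (16666 genes tested, 5 false calls), at FDR below 0.1 and 1.5-fold. Without the fold limit, false calls were 20 in Cb and 27 in F/M. In the interaction 164 of 200 were recovered, with 21 false calls without the fold limit. Changes under 2-fold, such as the T against N changes of the members, were not simulated. Coding windows and lengths came from GENCODE M21, with the shortest of the best-supported transcripts of each gene; a length was found for 97.2% of tested genes. GC and length offsets were natural splines per library.

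Libraries of a group differed by more than counting noise, so none were merged. The labels name separate samples; p-values measure the spread between them. Named genes were every member called at 1.5-fold, the 5 largest changes each way with separate groups, the 3 at each end of the interaction, and fixed role groups. Alternatives covered DESeq2 1.42.0, voom in limma 3.58.1, other scalings, filters and offsets, a replicate block and leaving out each library. Intervals at 0 counts cover counting error only. The members, lists and tests were chosen with earlier results of these data known. Values of a few members are not reported here; counts and medians over the members include them.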

Additional observations from a re-analysis of the deposited data

Results flagged for a closer look

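The test of the difference between the 2 areas picked out 12 members, whose T against N log2 fold change in Cb exceeded that in F/M by 0.39 for Rps21, 0.42 for Rps3a1, 0.18 for Rplp0, 0.15 for Rps3, 0.13 for Rps15a, 0.20 for Rplp1, 0.12 for Rpl4, 0.14 for Rps15, 0.25 for Rps26, 0.23 for Rpl3 and 0.15 for Rps14, and for Rpl36 by -0.76. That is 13.9% of the members higher and 1.27% lower, against 17.4% and 10.1% of all genes. Apart from Rpl36, each rose in Cb; in F/M, Rps21, Rplp0, Rps3, Rplp1, Rpl4, Rps15 and Rps14 also rose, by less, but with GC and length offsets only Rps3 and Rplp1 of these kept their call in F/M, with Rps21 at -0.00445, Rplp0 at 0.09, Rpl4 at 0.04, Rps15 at 0.05 and Rps14 at 0.05. In Cb, Rpl3 (0.08) lost its call with the offsets. With 1 library left out, the difference between areas ranged from 0.06 to 0.177 for Rps15a and from 0.0678 to 0.148 for Rpl4. Rps15a, Rps26, Rps3a1 and Rpl3 had F/M values of 0.10, 0.07, 0.07 and 0.02 that did not pass the test. With the offsets Rps15a was called higher in F/M (0.109, adjusted p = 0.0477 by the quasi-likelihood test), while Rps26, Rps3a1 and Rpl3 were not called there.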

How the results depend on the processing

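With both GC and length offsets, 22 members were higher, 5 lower and 2 lower at 1.5-fold in Cb (median 0.0681), 12 were higher and 1 lower in F/M (median 0.037), 5 were higher and 2 lower in the interaction (median -0.000467), and 0 control-area members were higher at 1.5-fold. Shares of all genes called with offsets are not given here. With length offsets only, added after the data were seen, Cb had 23 higher, 4 lower and 2 lower at 1.5-fold (median 0.0889) and F/M 12 higher and 1 lower (median 0.0387); with GC offsets only, also added, Cb had 2 lower at 1.5-fold and a median of 0.106. Under the offsets, called increases turned negative for Rpl15 in Cb (-0.0327) and for Rpl22 (-0.0315), Rpl34 (-0.0093) and Rps21 (-0.00445) in F/M. Values that had not passed the test did so for Rpl27 (-0.0495), Rpl27a (-0.0949), Rpl31 (-0.0115), Rpl35a (-0.00938), Rpl5 (-0.0254), Rpl7l1 (-0.0991), Rps7 (-0.127) and Rpsa (-0.0375) in Cb. In F/M they did so for Rpl15 (-0.075), Rpl27a (-0.0668), Rpl3 (-0.0851), Rpl31 (-0.0644), Rps13 (-0.0231), Rps26 (-0.0613), Rps27a (-0.124), Rps28 (-0.0586) and Rps6 (-0.0974).

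The labels do not say what a replicate number marks, and deviations of same-numbered libraries correlated at -0.05 to 0.04 between Cb-N and Cb-T, at -0.0011 to 0.21 between F/M-N and F/M-T, at 0.052 to 0.21 between F/M-N and Cb-N and at -0.0053 to 0.05 between F/M-T and Cb-T, so the numbers were not taken as pairs. With the replicate number as a block, 38 members were higher and 3 lower in Cb, 36 higher and 0 lower in F/M, 10 higher and 45 lower between control areas, and 14 higher and 1 lower in the interaction. With the replicate block and both offsets, Cb had 22 higher, 5 lower and 2 lower at 1.5-fold (median 0.0674), F/M 14 higher and 1 lower (median 0.0407), the interaction 5 higher and 3 lower (median -0.000927) and the control areas 1 higher at 1.5-fold. Negative values were again those of Rpl15 (-0.0332), Rpl27 (-0.0506), Rpl27a (-0.0944), Rpl31 (-0.0111), Rpl35a (-0.00984), Rpl5 (-0.0235), Rpl7l1 (-0.0996), Rps7 (-0.124) and Rpsa (-0.0425) in Cb, and Rpl15 (-0.0763), Rpl22 (-0.0318), Rpl27a (-0.0667), Rpl3 (-0.0829), Rpl31 (-0.0585), Rps13 (-0.02), Rps26 (-0.0603), Rps27a (-0.129), Rps28 (-0.0617) and Rps6 (-0.0981) in F/M.

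DESeq2 gave 2 lower at 1.5-fold in Cb, 19 higher in F/M, 1 higher at 1.5-fold between control areas, 4 higher, 0 lower and 0 lower at 1.5-fold in the interaction, and -9.65e-06 for Rpl7l1 in Cb. RLE size factors gave 2 lower at 1.5-fold in Cb and 6 higher in the interaction, total counts medians of 0.215 in Cb and -0.188 between control areas, and FDR below 0.05 gave 6 higher, 0 lower and 0 lower at 1.5-fold in the interaction. A mean count of at least 50 gave 0 lower, also at 1.5-fold, in Cb, 0 higher at 1.5-fold between control areas, and 4 higher and 0 lower at 1.5-fold in the interaction. A single fit of all libraries gave 2 lower at 1.5-fold in Cb, with Rpl7l1 at -0.0045, and in F/M Rpl3 at -0.0149, Rpl31 at -0.00351, Rps27a at -0.0216 and Rps6 at -0.00411. Why these values moved was not tested.

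Without 1 library at a time, Cb had 0 to 1 higher at 1.5-fold, 2 to 4 lower and 1 to 2 lower at 1.5-fold, F/M 18 to 35 higher and 0 to 1 higher at 1.5-fold, the control areas 1 to 4 higher at 1.5-fold, and the interaction 3 to 16 higher, 0 to 3 lower and 0 to 1 lower at 1.5-fold (median 0.00385 to 0.0974). Signs crossed 0 for Rpl27a (-0.026 to 0.0825), Rpl31 (-0.0733 to 0.221), Rpl7l1 (-0.0297 to 0.0392), Rps27 (-0.0326 to 0.377), Rps4l (-0.0212 to 0.142), Rps7 (-0.122 to 0.142) and Rpsa (-0.119 to 0.191) in Cb, and for Rpl3 (-0.0379 to 0.0729), Rpl31 (-0.117 to 0.232), Rps27a (-0.087 to 0.123) and Rps6 (-0.131 to 0.16) in F/M, none of them called. For single named genes, leaving out a library ended a call 47 times and made one 10 times, and the other alternatives ended 62 and made 13. Leaving out the 5 members with the highest counts gave shares of 0.142% (F/M-N), 0.161% (F/M-T), 0.126% (Cb-N) and 0.150% (Cb-T). Under every alternative run, the members' median stayed positive in Cb and F/M and negative between control areas. Members under 300 counts per library have the wider errors, and whether depth alone set their fewer calls was not tested.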
